A study of Mus musculus with 8 samples.

Results

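The genes described here encode the proteins of the cytosolic ribosome, and they were followed in bone marrow-derived macrophages (BMDMs), that is, macrophages cultured from marrow. The members were chosen by symbol (Rpl or Rps with a number, the P-stalk genes and Rpsa, without numbered pseudogenes and without the Rps6k kinases) and by a mean of 50 or more raw counts over the 8 libraries. Of the 50615 genes in the table, 90 matched the symbols and 83 also had the mean count, 50 for the large subunit and 33 for the small subunit. Just inside the limit were Rpl6l, with a mean of 124 counts, and Rps3a2, with 173, both annotated as processed pseudogenes, while the other 81 members were protein coding. Just outside it was Rps4l, with a mean of 45.9 counts, and the other 6 matches (Rpl39l, Rps12l1, Rps3a3, Rpl3l, Rpl32l and Rpl10l) had means of 7.6 or less. All 83 members passed the filter on low counts and were tested. The mean count chose them, so their high level is a description.

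The BMDMs came from Ncoa6 fl/fl LysM CRE mice (Ncoa6-KO), in which Cre recombinase made from the lysozyme 2 locus deletes floxed Ncoa6 sequence in cells of the myeloid line, and from Ncoa6 fl/fl mice (Ncoa6-sufficient), which carry the floxed gene without Cre. For all of them, the macrophages were derived over 6 days with 20 ng/ml M-CSF. They were then kept in medium alone or received 100 ng/ml LPS over 4 h and 200 µg/ml monosodium urate (MSU) crystals over 2 h more, so the effects of LPS and MSU cannot be told apart. There were 2 libraries in each of the 4 groups, made from different mice, and the ages of the mice are not given in the sources used here.

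A ribosome is made of a small subunit, which reads the mRNA, and a large subunit, which joins amino acids. Each ribosomal protein is needed in about equal amounts, and most have no substitute. Their mRNAs are among the most abundant of a cell and typically begin with a C followed by a run of C and T, the 5′ terminal oligopyrimidine (TOP) motif, through which mTORC1 and the RNA-binding protein LARP1 control their translation. The measured quantity is mRNA, and neither ribosomes nor translation were measured. In bulk RNA, fewer cells of a type and less RNA per cell cannot be told apart.

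Start sequences are shown for the members with the largest responses to LPS + MSU that had an entry, and for Rps6 as a clear example of the motif. Rps24 and Rpl19 have 2 annotated starts each, and both are printed. Each line holds the 15 bases before and the 15 bases from an annotated start in RefSeq, build GRCm38.p6, read 5′ to 3′ on the strand of the gene. Capitals mark the longest run of at least 5 C or T that reaches within 5 bases of the start, and a line without capitals has no such run.
Rpl24, chr16:55966260-55966289, plus strand: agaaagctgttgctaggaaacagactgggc
Rps24, first start, chr14:24490663-24490692, plus strand: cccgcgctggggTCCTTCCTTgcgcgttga
Rps24, other start, chr14:24490738-24490767, plus strand: tccggcgccgtagccatcatggtgagtctc
Rpl15, chr14:18270972-18271001, minus strand: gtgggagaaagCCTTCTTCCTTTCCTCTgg
Rpl7a, chr2:26910792-26910821, plus strand: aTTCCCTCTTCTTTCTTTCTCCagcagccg
Rpl19, first start, chr11:98026695-98026724, plus strand: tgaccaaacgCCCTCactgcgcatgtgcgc
Rpl19, other start, chr11:98026909-98026938, plus strand: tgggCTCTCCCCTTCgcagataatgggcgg
Rps18, chr17:33955651-33955680, minus strand: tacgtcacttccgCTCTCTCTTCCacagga
Rps6, chr4:86857353-86857382, minus strand: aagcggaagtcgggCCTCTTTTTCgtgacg
RefSeq starts matched 61 of the 83 members, with 72 starts in all. A C at the annotated start followed by at least 4 C or T stood at 13 of the 72 starts (18.1%), against 2.51% of all 32851 starts. A run of at least 5 C or T within 5 bases of the start was at 36 member starts (50%), against 32.9% of all starts. Only the strand of the gene was searched, and annotated starts can lie some bases from the starts used in these cells. A match is a description of the letters and not of control.

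Levels were compared between genes as normalized counts per kilobase of the annotated principal transcript. Normalized counts are counts divided by edgeR's TMM-scaled library size and multiplied by the mean of those sizes. On this scale the members had a median of 8180 normalized counts per kb, and those between the 25th and 75th percentile ran from 6150 to 11400. The median of all tested genes was 83.7 normalized counts per kb, and 73 of the 83 members were among the 500 highest genes.

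The highest members were Rplp1, with a mean of 22594 normalized counts per kb, Rpl10, with 21006, Rps12, with 18173, Rpl19, with 17666, and Rps27a, with 17016. Rplp1 is a protein of the P stalk, which recruits the factors that drive translation. Rps27a encodes a fusion of ubiquitin with a small-subunit protein. The libraries of Rplp1 ran from 17400 to 26600 normalized counts per kb and those of Rpl10 from 19600 to 22900, so the order of these highest genes was not separated by the spread over the libraries.

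**Figure D1:**
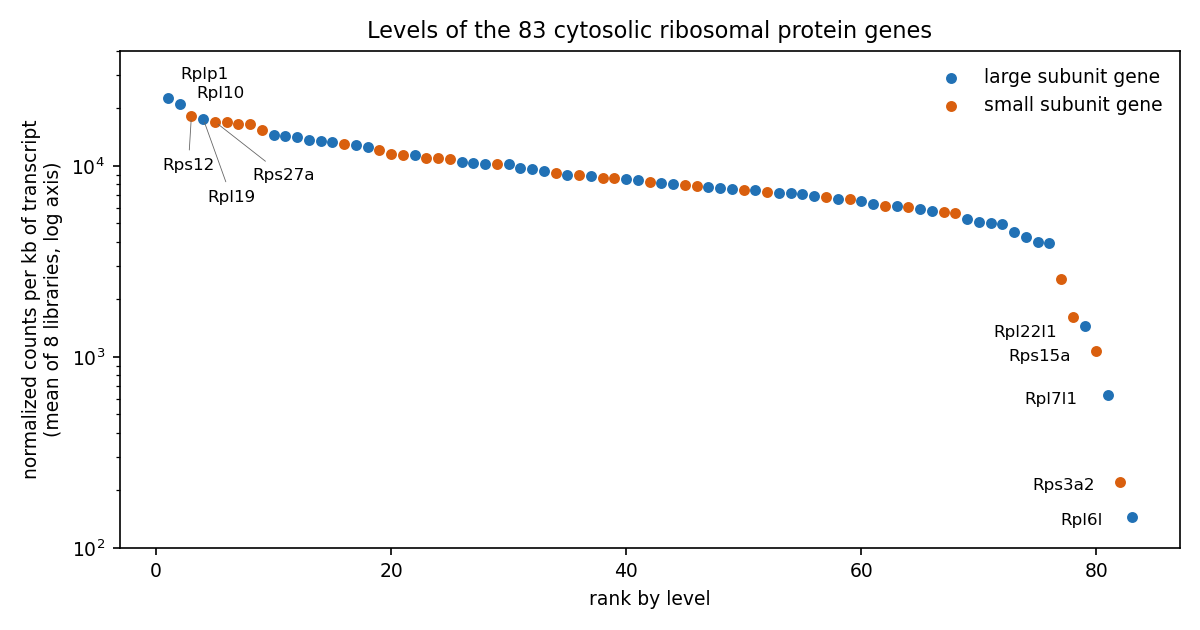
Level of each of the 83 ribosomal protein genes, as mean normalized counts per kb of transcript over the 8 libraries on a log axis, against its rank. Points are genes, coloured by subunit, and the 5 highest and 5 lowest are named. The points form a gentle slope from Rplp1 at 22594 and then fall steeply to Rpl6l at 145.

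The lowest members were Rpl6l, with 145 normalized counts per kb, Rps3a2, with 222, Rpl7l1, with 628, Rps15a, with 1075, and Rpl22l1, with 1445. Among them are the paralogs Rpl7l1 and Rpl22l1, so called for their likeness to Rpl7 and Rpl22. Rps15a was divided by an annotated transcript of 5179 bases, the longest of the members, whose median length was 780 bases. With the union of all annotated exons as the length, Rplp1 and Rpl19 kept the 2 highest ranks, Rpl10 had rank 11, Rps27a 27 and Rps12 28, and the 5 lowest members were the same genes. Of the 82 pairs of neighbours in the order by principal transcript, 4 did not overlap over the 8 libraries.

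Reads of this family are hard to assign. Of the 83 principal transcripts, 77 shared at least one stretch of 100 bases, the read length, with a transcript of another gene, and 31 shared more than 50% of such stretches. Rpl22, Rps27l, Rps3, Rpl32 and Rps21 were among the members that shared none. The values of members that share many are estimates that RSEM divided between copies, and 28 members also had an exon that overlapped an exon of another gene on the same strand. The 298 pseudogenes named after members held between 1.01% and 1.18% as many counts as the members did.

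Libraries held between 25281955 and 33673552 counts. Ncoa6, the targeted gene, had 1515 and 1405 normalized counts in Ncoa6-sufficient BMDMs in medium alone and 784 and 622 in Ncoa6-KO BMDMs. Under LPS + MSU it had 1297 and 1173 in Ncoa6-sufficient BMDMs and 563 and 526 in Ncoa6-KO BMDMs, so every Ncoa6-KO library was below every Ncoa6-sufficient library. Macrophage markers were detected throughout, 8 of 8, with a summed level of 10500 to 19700 CPM (counts scaled to the same total in every library), and all 7 T and NK cell markers had 3 or fewer counts in every library. The TMM factors were 1.23 to 1.29 in medium alone and 0.766 to 0.829 with LPS + MSU, and the 500 most abundant genes took 48.9% to 50.1% of the counts in medium alone and 57% to 57.6% with LPS + MSU.

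The libraries of a group also differed in the members as a whole. In Ncoa6-sufficient BMDMs in medium alone, 82 of the 83 members were higher in library 1 than in library 2, with a median difference of 0.18 on the log2 scale. The same median was 0.02 over genes averaging 50 or more normalized counts. In the other groups the members' median difference between the libraries was 0.08 (Ncoa6-sufficient, LPS + MSU), -0.07 (Ncoa6-KO, medium alone) and -0.01 (Ncoa6-KO, LPS + MSU). The share of counts from mitochondrially encoded genes was 3.89% and 6.28% in the pair of Ncoa6-sufficient libraries in medium alone, and its part in the difference was not tested. The members' medians of the comparisons that use these libraries are given with and without each of them.

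**Figure D2:**
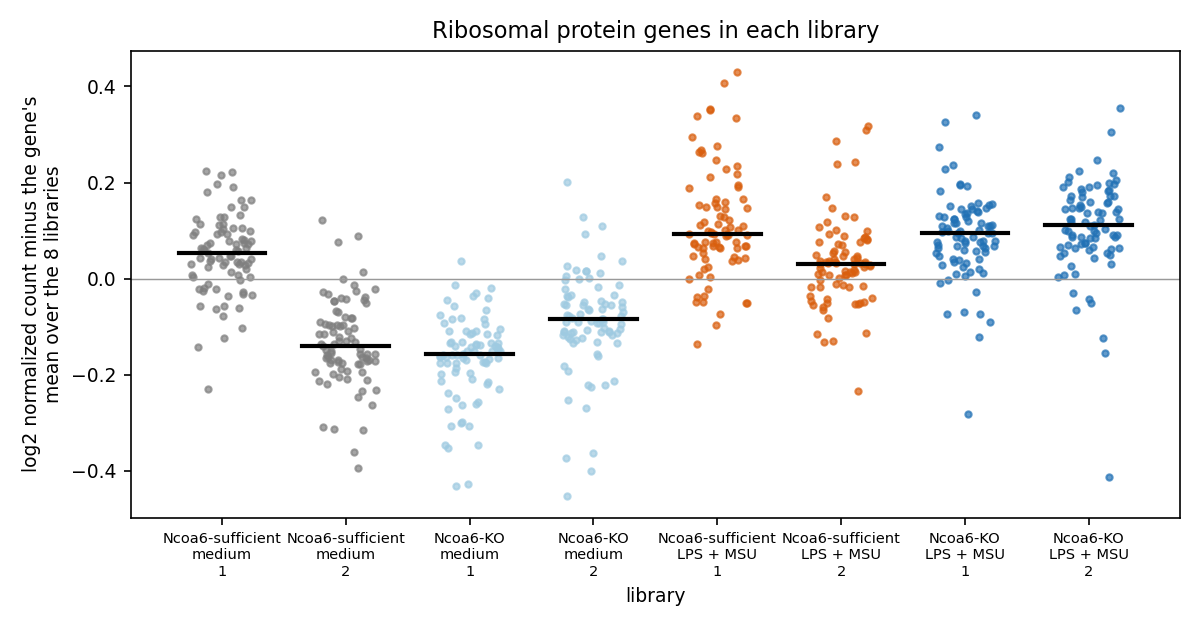
Level of the 83 ribosomal protein genes in each of the 8 libraries, as the log2 normalized count minus the mean of that gene over the libraries (TMM scaling). Points are genes and black lines are medians. Library 1 of the Ncoa6-sufficient BMDMs in medium alone lies above library 2, and the 4 libraries with LPS + MSU have medians above 0, an order that turns when libraries are scaled by their total counts.

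The first question was what LPS + MSU did to ribosomal protein mRNAs. As a share of all counts, the members fell in both genotypes. In Ncoa6-sufficient BMDMs they took 2.69% and 2.41% of the counts in medium alone and 1.77% and 1.72% with LPS + MSU. In Ncoa6-KO BMDMs they took 2.37% and 2.57% in medium alone and 1.83% and 1.91% with LPS + MSU. The group means were 2.55% ± 0.196 and 1.74% ± 0.0324 in Ncoa6-sufficient BMDMs and 2.47% ± 0.137 and 1.87% ± 0.0539 in Ncoa6-KO BMDMs (SD, n = 2 each). The culture conditions did not overlap in either genotype, and no test was made of this sum.

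After TMM scaling, which sets the bulk of genes rather than the total equal between libraries, the direction was the other way. In Ncoa6-sufficient BMDMs, 9 of the 83 members were higher with LPS + MSU at an adjusted p-value under 0.05 (edgeR's quasi-likelihood test, Benjamini-Hochberg over all 17625 tested genes) and 0 were lower. In the same comparison 24.7% of all tested genes were called higher and 30.5% lower. Among the 4657 genes that averaged 1000 or more normalized counts, 46.6% were called higher. In Ncoa6-KO BMDMs, 21 members were called higher and 0 lower, beside 25.2% and 27.9% of all tested genes, and 47.7% of the abundant genes were called higher. At an unadjusted p-value under 0.05 there were 11 and 33 members. The share of all tested genes at that threshold is at least the 55.2% and 53.1% called in either direction after adjustment. DESeq2 called 27 and 43 members higher, beside 27.4% and 26.4% of all tested genes and 52.8% and 51% of the abundant genes. With the counts of the 298 pseudogenes added to their parent genes, edgeR again called 9 and 21, and the share of all genes called in that fit is not given here.

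The size of these changes was small. The members' median log2 fold change was 0.09 in Ncoa6-sufficient BMDMs, a 1.07-fold level, and 0.21 in Ncoa6-KO BMDMs, a 1.15-fold level. The medians were -0.12 and -0.07 over all tested genes and 0.21 and 0.24 over the abundant genes. The members' median in Ncoa6-sufficient BMDMs was 0.20 without library 1 of the medium group, 0.01 without library 2 of it and 0.18 without library 2 of the LPS + MSU group, so its size followed single libraries. In Ncoa6-KO BMDMs the median stayed between 0.17 and 0.25 when each library was left out. The members from the 25th to the 75th percentile lay between 0.03 and 0.17 in Ncoa6-sufficient and between 0.15 and 0.27 in Ncoa6-KO BMDMs. For all tested genes these percentiles lay at -0.91 and 0.70 and at -0.82 and 0.68. Large-subunit and small-subunit genes had nearly the same median, 0.09 and 0.10 in Ncoa6-sufficient BMDMs and 0.20 and 0.23 in Ncoa6-KO BMDMs. By normalized counts, the culture conditions did not overlap for 31 members that were higher and 6 that were lower with LPS + MSU in Ncoa6-sufficient BMDMs, beside 35.1% and 43.5% of all tested genes. In Ncoa6-KO BMDMs these were 71 members higher and 2 lower, beside 35.4% and 41.1% of all tested genes.

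The scaling decides the sign. With DESeq2's size factors in the same fit, 21 members were called higher and 0 lower in Ncoa6-sufficient BMDMs, and 38 and 0 in Ncoa6-KO BMDMs, beside 28.2% and 27.1% of all tested genes and 53.5% and 52% of the abundant genes called higher. The members' medians were then 0.20 and 0.26. With the total counts alone, 0 members were called higher and 78 lower in Ncoa6-sufficient BMDMs, with a median of -0.58, and 0 and 72 in Ncoa6-KO BMDMs, with a median of -0.43, beside 54.8% and 52.8% of all tested genes and 60.1% and 58.2% of the abundant genes called lower. The median of all tested genes moved with it, to -0.78 and -0.71. The distance of the members' median from that of all genes was 0.21, 0.21 and 0.20 under the 3 scalings in Ncoa6-sufficient BMDMs and 0.28 under each of them in Ncoa6-KO BMDMs. The abundant genes had medians of 0.21, 0.33 and -0.46 in Ncoa6-sufficient and 0.24, 0.29 and -0.40 in Ncoa6-KO BMDMs. Each of these was above the members' median, so the members were above all genes but below the abundant genes. No spike-in was used, so whether a cell held more or fewer of these mRNAs was not measured.

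**Figure D3:**
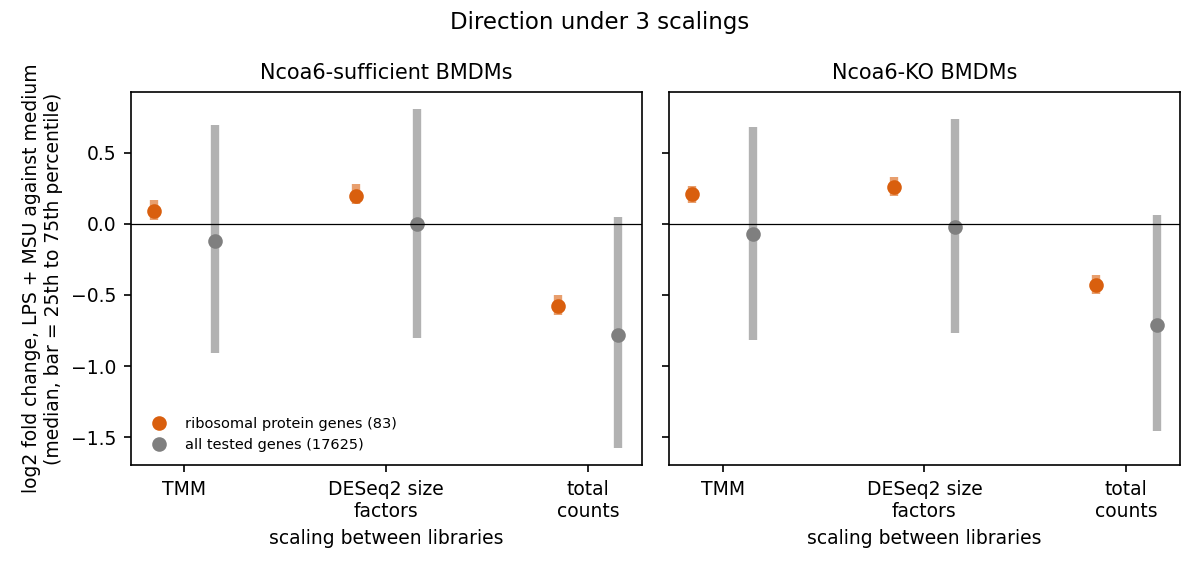
Log2 fold change with LPS + MSU against medium alone under 3 scalings between libraries, in Ncoa6-sufficient (left) and Ncoa6-KO BMDMs (right). Points are medians and bars run from the 25th to the 75th percentile of the 83 ribosomal protein genes (orange) and of all 17625 tested genes (grey). The orange median is above 0 with TMM and DESeq2's size factors and below 0 with total counts, and in each case lies above the grey median. The abundant genes, whose medians lie above the orange ones, are not drawn.

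Beneath the common shift, a few members stood out in both genotypes. The larger rises among called members included Rpl24, Rps24, Rps20 and Rpl15 in Ncoa6-sufficient BMDMs, and Rpl24, Rps20, Rps24 and Rpl19 in Ncoa6-KO BMDMs. These rises hold for TMM and for DESeq2's size factors. With total counts their log2 fold changes ran from -0.32 to 0.11, and Rpl15 in Ncoa6-sufficient BMDMs was then called lower.

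Rpl24 (chr16:55966275-55971435, GRCm38), a large-subunit protein that forms a bridge to the small subunit, had 4733 and 4479 normalized counts in medium alone and 7092 and 6879 with LPS + MSU in Ncoa6-sufficient BMDMs. In Ncoa6-KO BMDMs it had 4114 and 4282, and 6958 and 7093. The culture conditions did not overlap in either genotype. The log2 fold changes were 0.60 (SE 0.09, adjusted p = 0.000155, edgeR) and 0.74 (SE 0.09, adjusted p = 3.16e-05), and 80.1% of its stretches of 100 bases were shared with other genes. Its start window, shown above, has no run of C and T.

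Rps24 (chr14:24487125-24496959), a small-subunit protein, had 12774 and 11049 normalized counts in medium alone and 17289 and 16173 with LPS + MSU in Ncoa6-sufficient BMDMs, and 10788 and 11378 against 16574 and 15586 in Ncoa6-KO BMDMs. Rps20 (chr4:3831334-3835665), of the head of the small subunit, had 5763 and 4886 against 7485 and 6938 in Ncoa6-sufficient BMDMs, and 4592 and 4564 against 6876 and 6654 in Ncoa6-KO BMDMs. Both were without overlap in both genotypes. The log2 fold changes of Rps24 were 0.49 (SE 0.11, adjusted p = 0.00264, edgeR) and 0.54 (SE 0.11, adjusted p = 0.00155), and those of Rps20 0.44 (SE 0.10, adjusted p = 0.00397) and 0.56 (SE 0.10, adjusted p = 0.000799).

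Rpl15 (chr14:18267823-18271391), a protein of the core of the large subunit, had 7821 and 7544 normalized counts in medium alone and 10306 and 9319 with LPS + MSU in Ncoa6-sufficient BMDMs, a log2 fold change of 0.35 (SE 0.10, adjusted p = 0.0101, edgeR). Without library 2 of the medium group its adjusted p was 0.0611, and without library 1 of the LPS + MSU group it was 0.0511. Rpl19 (chr11:98026710-98030492), a large-subunit protein at the face toward the small subunit, had 10945 and 11590 normalized counts in medium alone and 15489 and 15313 with LPS + MSU in Ncoa6-KO BMDMs, a log2 fold change of 0.45 (SE 0.11, adjusted p = 0.00368). In Ncoa6-sufficient BMDMs Rpl19 had 12573 and 11082 against 15046 and 14098, a log2 fold change of 0.30 (SE 0.10, adjusted p = 0.0304). Of their stretches of 100 bases, Rps24 shared 10.7%, Rps20 5.91%, Rpl15 28.3% and Rpl19 61% with other genes, so reads of Rpl19 were the hardest of these to assign.

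The 9 members called in Ncoa6-sufficient BMDMs, which also included Rpl7a, Rps9 and Rpl29, were all among the 21 called in Ncoa6-KO BMDMs, where they made up 42.9%. The comparisons of the 2 genotypes share no library. Across the 83 members, their log2 fold changes had a Pearson correlation of 0.87 and a Spearman correlation of 0.77, given as a description, since genes are not independent and the scaling is common to them. Of the 10 largest rises in each genotype, 9 were the same genes. The log2 fold change was larger in Ncoa6-KO BMDMs for 81 of 83 members with TMM scaling, 72 with DESeq2's size factors and 82 with total counts, and Rpl6l, annotated as a pseudogene, was the farthest exception, with 0.26 in Ncoa6-sufficient BMDMs against -0.02.

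**Figure D4:**
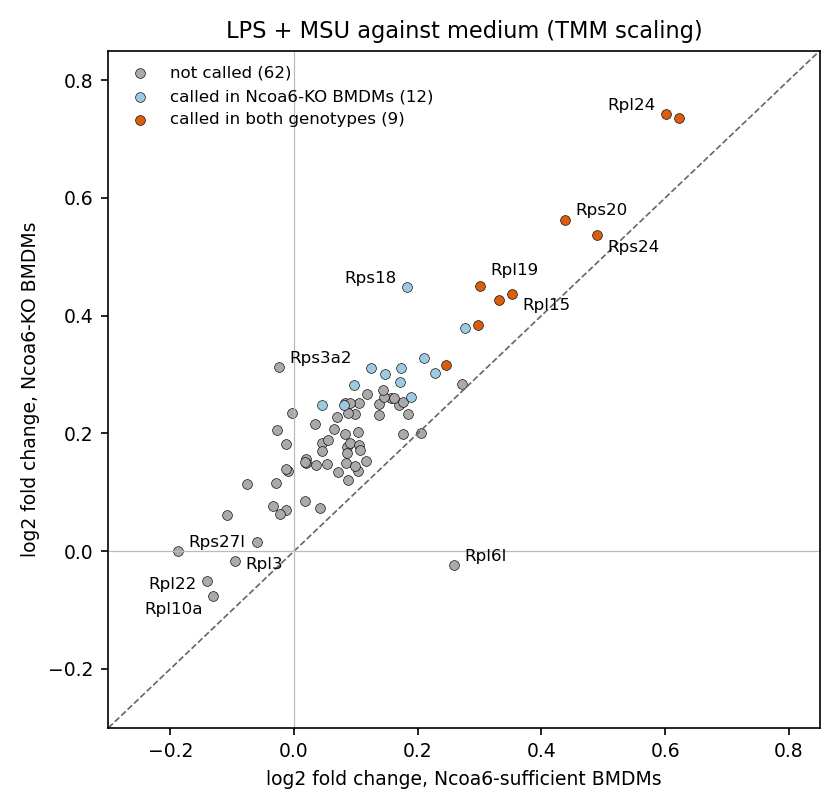
Log2 fold change of each of the 83 ribosomal protein genes with LPS + MSU against medium alone (TMM scaling) in Ncoa6-sufficient BMDMs (x axis) and Ncoa6-KO BMDMs (y axis). Points are genes, coloured by whether the adjusted p-value was under 0.05, and the dashed line marks equal values. Rpl24 lies far from 0 in both genotypes, and 81 genes lie above the dashed line; with total counts as the scaling all points move down and to the left and most fall below 0.

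No member was called lower in either genotype with TMM scaling. The lowest log2 fold changes in Ncoa6-sufficient BMDMs were -0.19 for Rps27l, -0.14 for Rpl22 and -0.13 for Rpl10a, with adjusted p-values of 0.203, 0.247 and 0.259 (edgeR). In Ncoa6-KO BMDMs the same genes were at 0.00, -0.05 and -0.08.

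Each member's part of the summed member counts does not depend on the scaling between libraries. Rpl24 made up 0.738% and 0.789% of the member counts in medium alone and 1.05% and 1.08% with LPS + MSU in Ncoa6-sufficient BMDMs, and 0.741% and 0.731% against 1.04% and 1.05% in Ncoa6-KO BMDMs. In the other direction, Rpl3, which lies close to the catalytic centre of the large subunit, made up 2.45% and 2.54% in medium alone and 2.13% and 2.16% with LPS + MSU in Ncoa6-sufficient BMDMs, and 2.33% and 2.21% against 1.95% and 1.86% in Ncoa6-KO BMDMs. Without overlap of the libraries, the shares of 17 members were higher and those of 31 lower with LPS + MSU in Ncoa6-sufficient BMDMs. In Ncoa6-KO BMDMs these were 19 and 36, and 14 and 24 were so in both genotypes. These counts are a description. No share over all genes exists for this measure, and a rise in some parts of a sum lowers others. For 2 against 2 libraries the exact permutation p-value is 0.333 at best. From the 25th to the 75th percentile the members changed their share by between -0.10 and 0.05 on the log2 scale in Ncoa6-sufficient BMDMs and between -0.09 and 0.03 in Ncoa6-KO BMDMs.

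The P stalk, the laminin receptor homolog and the S6 kinase substrate were not called in either genotype. Rplp0, which anchors the P stalk, had 16997 and 15119 normalized counts in medium alone and 17706 and 16379 with LPS + MSU in Ncoa6-sufficient BMDMs. The log2 fold changes in Ncoa6-sufficient and Ncoa6-KO BMDMs were 0.09 and 0.18 for Rplp0, 0.27 and 0.28 for Rplp1, and 0.06 and 0.21 for Rplp2. They were -0.01 and 0.07 for Rpsa, and 0.09 and 0.24 for Rps6, the substrate of the S6 kinases. The standard errors of these 5 genes lay within the members' range of 0.09 to 0.18, and their adjusted p-values in edgeR ran from 0.056 for Rps6 in Ncoa6-KO BMDMs upward.

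The second question was what the loss of Ncoa6 did to the family. With medium alone, 0 of the 83 members were called in edgeR, beside 1.88% of all tested genes, and 3 had an unadjusted p-value under 0.05. DESeq2 called 0 members and 3.97% of all tested genes. The members' median log2 fold change of Ncoa6-KO against Ncoa6-sufficient BMDMs was -0.09, with 72 members below 0, against -0.03 over all tested genes. Without library 1 of the Ncoa6-sufficient BMDMs the median was 0.02, and without library 2 it was -0.18, and it was -0.05 without library 1 of the Ncoa6-KO BMDMs, so this median followed single libraries. With LPS + MSU, 0 members were called in edgeR, beside 3.59% of all tested genes, 3 had an unadjusted p-value under 0.05, and the median was 0.02, or -0.01 with DESeq2's size factors and between -0.02 and 0.06 when each library was left out. DESeq2 called 1, Rpl22l1, and 6.44% of all tested genes. The share of all tested genes with an unadjusted p-value under 0.05 is not given here for either comparison, so these counts have no background. The standard errors of the members had a median of 0.10 in both comparisons. The summed macrophage markers were 17200 to 19700 CPM in Ncoa6-sufficient and 11700 to 13100 CPM in Ncoa6-KO BMDMs in medium alone, and 13500 to 14600 against 10500 to 10800 CPM with LPS + MSU, with 2 of the 8 markers called lower in each condition. Of all tested genes, 1.3% were called lower in medium alone and 1.63% with LPS + MSU. Which 2 markers were called is not given here. Lyz2 is among the 8 markers, and Cre is made from its locus in the Ncoa6-KO mice only. The sum therefore cannot tell the Cre allele from a difference in the cells. The part of the markers in the members' values was not tested.

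Rpl22l1 (ENSMUSG00000039221, chr3:28805436-28807424) had the smallest p-value of the members in both knockout comparisons. It is a paralog of the RNA-binding ribosomal protein Rpl22. Rpl22l1 had 910 and 829 normalized counts in Ncoa6-sufficient BMDMs in medium alone and 656 and 570 in Ncoa6-KO BMDMs. Under LPS + MSU it had 1035 and 972 in Ncoa6-sufficient BMDMs and 823 and 586 in Ncoa6-KO BMDMs. The genotypes did not overlap in either culture condition, as for 23 members that were lower in Ncoa6-KO BMDMs in medium alone (24.5% of all tested genes) and 10 with LPS + MSU (22.7%). In the other direction, 2 members were higher in Ncoa6-KO BMDMs without overlap in medium alone (18.6% of all tested genes) and 29 with LPS + MSU (24.7%). For Rpl22l1, edgeR gave the following values. The log2 fold changes were -0.50 (SE 0.14, adjusted p = 0.122, edgeR) and -0.51 (SE 0.15, adjusted p = 0.0962), which missed the threshold. DESeq2 gave adjusted p-values of 0.105 and 0.0396, and edgeR without the filter on low counts gave 0.00115 and 0.00129. A fit of edgeR with the library number as a block also called Rpl22l1 in both culture conditions, though no label ties a number to one mouse. With LPS + MSU the value rested on the library left out, -0.79 (adjusted p = 0.0232) without Ncoa6-KO library 1 and -0.29 (adjusted p = 0.476) without Ncoa6-KO library 2.

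Rpl22 itself had 3250 and 2742 normalized counts in Ncoa6-sufficient BMDMs in medium alone and 2759 and 2830 in Ncoa6-KO BMDMs, and 2728 and 2706 against 2660 and 2739 with LPS + MSU. The genotypes overlapped in both culture conditions, with log2 fold changes of -0.10 and -0.01 (SE 0.10 each). The ratio of raw Rpl22l1 to Rpl22 counts, which needs no scaling, was 0.280 and 0.302 in Ncoa6-sufficient and 0.238 and 0.201 in Ncoa6-KO BMDMs in medium alone. With LPS + MSU it was 0.379 and 0.359 in Ncoa6-sufficient and 0.310 and 0.214 in Ncoa6-KO BMDMs. The ratio was thus lower in every Ncoa6-KO library than in the Ncoa6-sufficient libraries of the same culture condition.

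The 60 bases in which the coding sequences of such pairs are most alike show how much the partners resemble each other. They were taken from the GENCODE vM21 transcripts (GRCm38) and are given 5′ to 3′, with capitals at the bases that differ.
Rpl22, coding bases 231 to 290: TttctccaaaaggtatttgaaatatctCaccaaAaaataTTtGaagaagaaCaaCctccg
Rpl22l1, coding bases 213 to 272: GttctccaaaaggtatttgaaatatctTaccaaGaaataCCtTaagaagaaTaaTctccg
Rps27, coding bases 40 to 99: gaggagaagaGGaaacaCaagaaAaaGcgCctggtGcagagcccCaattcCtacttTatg
Rps27l, coding bases 40 to 99: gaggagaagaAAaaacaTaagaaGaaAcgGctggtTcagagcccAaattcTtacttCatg
The windows held 52 of 60 identical bases for Rpl22 and Rpl22l1 and 50 of 60 for Rps27 and Rps27l, and neither pair shared a stretch of 100 coding bases. Rpl36a and Rpl36al were closest, with 58 of 60 bases, and Rpl7 and Rpl7l1 were the farthest apart, with 43 of 60, also without a shared stretch of 100 coding bases. Of the transcript of Rpl22l1, 40.6% of the stretches were shared with 1 other gene. Rps27 shared 98.4% and Rpl36a 83.6%, each with 2 other genes, so their counts rest largely on how RSEM divided the reads. Rpl22 and Rps27l shared none.

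Rps27l, a paralog of the small-subunit protein Rps27, was among the 3 members with the smallest p-value with LPS + MSU. It had 1161 and 1084 normalized counts in Ncoa6-sufficient and 1215 and 1512 in Ncoa6-KO BMDMs, a log2 fold change of 0.28 (SE 0.12, adjusted p = 0.253, edgeR), which was 0.41 without Ncoa6-KO library 1 and 0.11 without Ncoa6-KO library 2. Rps27 had 2452 and 2341 against 2479 and 2373. The other was Rpl12, at the base of the stalk, with 8874 and 8752 against 10225 and 10507 normalized counts, a log2 fold change of 0.23 (SE 0.10, adjusted p = 0.249). With medium alone the next 2 after Rpl22l1 were large-subunit genes, Rpl14 with -0.23 (SE 0.10, adjusted p = 0.342) and Rpl3 with -0.22 (SE 0.10, adjusted p = 0.383). None of these 4 values passed the threshold.

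**Figure D5:**
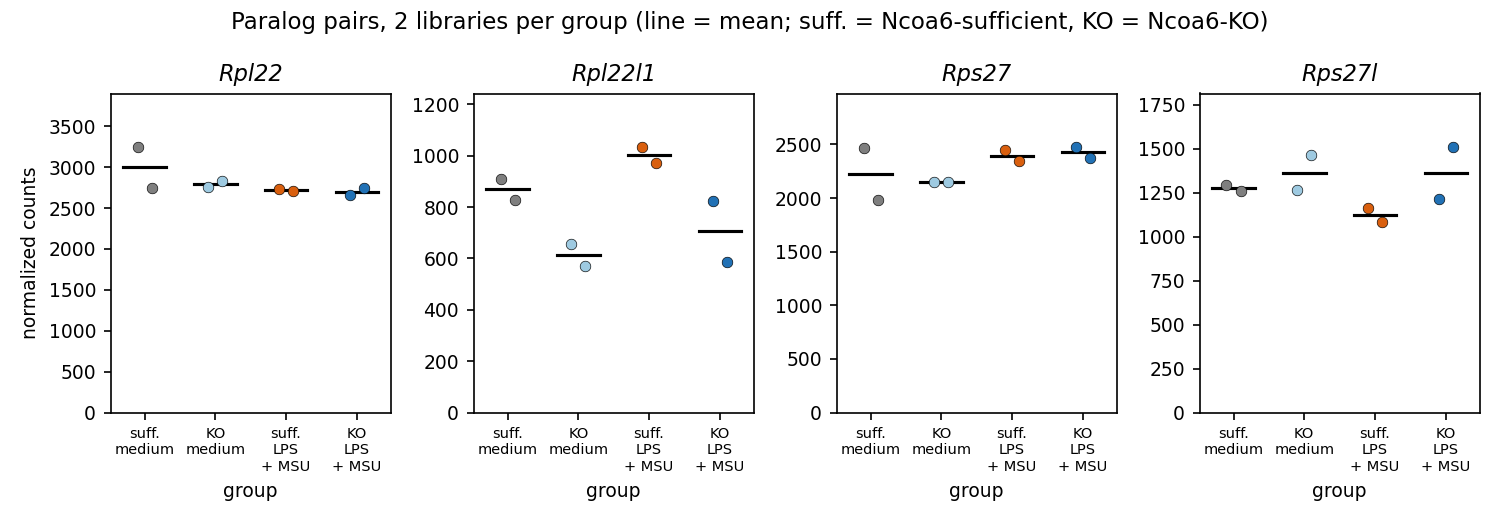
Normalized counts of the paralog pairs Rpl22 and Rpl22l1 and Rps27 and Rps27l by group. Points are the 2 libraries of a group, lines are their means, and each axis starts at 0. The Ncoa6-KO libraries of Rpl22l1 (656, 570, 823 and 586) lie below the Ncoa6-sufficient libraries of the same culture condition, which is not so for Rpl22.

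No difference between the genotypes was called for the remaining pairs. Rpl36al had log2 fold changes of 0.03 and 0.11 in the comparisons in medium alone and with LPS + MSU, and Rpl36a had -0.04 and 0.04. Rpl7l1 had -0.11 and -0.04, and Rpl7 had -0.09 and -0.05. Rpl39, Rpl3 and Rps4x had partners (Rpl39l, Rpl3l and Rps4l) under the limit of 50 counts, with at most 18, 4 and 67 raw counts in a library. The adjusted p-values of these genes in edgeR ran from 0.365 upward.

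Whether the effect of the knockout differed between culture conditions was tested by the interaction. No member was called, beside 0.0% of all tested genes, and 0 members had an unadjusted p-value under 0.05. The share of all tested genes at that unadjusted threshold is not given here. DESeq2 called 0 members and 0.412% of all tested genes. The smallest p-values were those of Rps18, with 0.27 (SE 0.16, adjusted p = 0.895, edgeR), Rps19, with 0.24 (SE 0.15, adjusted p = 0.904), and Rps15, with 0.20 (SE 0.13, adjusted p = 0.912), all of the small subunit. The median over the members was 0.11, with 81 members above 0, against 0.06 over all tested genes. Without library 1 of the Ncoa6-sufficient BMDMs in medium alone the median was 0.01, and without library 2 it was 0.20. The single genes moved likewise, Rps18 to 0.10 and 0.41, Rps19 to 0.13 and 0.34 and Rps15 to 0.14 and 0.26, and without Ncoa6-KO library 2 with LPS + MSU Rps19 had 0.14 and Rps15 0.11. The greater number of members called with LPS + MSU in Ncoa6-KO than in Ncoa6-sufficient BMDMs is therefore not shown to be a difference between the genotypes.

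The genes around the family moved in their own ways, and the lists were chosen with earlier results of these data known. The ribosomal protein gene Fau, fused to a ubiquitin-like protein, had log2 fold changes of 0.20 and 0.38 with LPS + MSU in Ncoa6-sufficient and Ncoa6-KO BMDMs, and the ribosome-bound scaffold Rack1 0.17 and 0.25, with TMM scaling. Fau was called higher in Ncoa6-KO BMDMs (adjusted p = 0.00763, edgeR) and Rack1 was not called (adjusted p = 0.0692). With DESeq2's size factors both genes were called higher in both genotypes, while with total counts both were called lower in both genotypes. Of 78 mitochondrial ribosomal protein genes, 14 rose and 27 fell in Ncoa6-sufficient BMDMs and 16 rose and 17 fell in Ncoa6-KO BMDMs, with medians of -0.17 and -0.07. With DESeq2's size factors the calls were 17 and 20, and 16 and 15, and with total counts 2 and 70, and 2 and 65.

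The genes that make ribosomes were read against all tested genes, of which 24.7% rose and 30.5% fell in Ncoa6-sufficient and 25.2% rose and 27.9% fell in Ncoa6-KO BMDMs with TMM scaling. Of 74 genes of ribosome assembly and rRNA processing, 14 rose and 36 fell in Ncoa6-sufficient BMDMs (median -0.28), and 14 rose and 27 fell in Ncoa6-KO BMDMs (median -0.19). Of 20 tested genes for RNA polymerase I and rDNA transcription, 1 rose and 8 fell, and 1 rose and 9 fell. With DESeq2's size factors the assembly genes had 17 rises and 27 falls, and 18 and 26, and the RNA polymerase I genes 3 and 8, and 1 and 6, while total counts gave 4 and 59, 4 and 54, 0 and 19, and 0 and 19. Over all tested genes 28.2% rose and 26.8% fell, and 27.1% and 25.9%, with DESeq2's size factors, and 14.2% and 54.8%, and 14.4% and 52.8%, with total counts. Whether the lists differ from all genes was not tested. Polr1b, a core subunit of RNA polymerase I, had 468 and 433 normalized counts in medium alone and 105 and 121 with LPS + MSU in Ncoa6-sufficient BMDMs, a log2 fold change of -1.99 (SE 0.15, adjusted p = 7.36e-07, edgeR). Ubtf, which opens rDNA for transcription, changed by -1.07 and -1.02 and Nop56, of the box C/D particles that guide rRNA methylation, by -1.02 and -0.74 in Ncoa6-sufficient and Ncoa6-KO BMDMs. Polr1a, the largest subunit, had -0.34 and -0.38 and was called in Ncoa6-KO BMDMs. Fbl had 0.04 and 0.11, Ncl -0.06 and -0.03, and Npm1 0.02 and 0.04, with none of these called.

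Genes that regulate the family held some of the larger changes. Myc, whose product raises transcription of ribosome genes, had 378 and 349 normalized counts in medium alone and 1584 and 1899 with LPS + MSU in Ncoa6-sufficient BMDMs, a log2 fold change of 2.26 (SE 0.12, adjusted p = 4.91e-08, edgeR), and 2.61 in Ncoa6-KO BMDMs. Larp1, whose product binds TOP mRNAs, had 2823 and 2512 against 14584 and 12820, a log2 fold change of 2.36 (SE 0.12, adjusted p = 3.31e-08), and 2.10 in Ncoa6-KO BMDMs. With total counts Myc was at 1.59 and 1.98 and Larp1 at 1.69 and 1.47. Mtor rose by 0.54 and 0.41 with TMM scaling but had -0.13 and -0.22 with total counts, and Eif4ebp1, an inhibitor of initiation, fell by 0.50 and 0.42 on the log2 scale. In this list of 19 regulators 7 rose and 9 fell in Ncoa6-sufficient, and 7 rose and 10 fell in Ncoa6-KO BMDMs, and with total counts 4 rose and 13 fell, and 4 rose and 14 fell. Of the 9 tested S6 kinase genes, 4 rose and 3 fell, and 4 rose and 2 fell, and with total counts 1 rose and 5 fell, and 1 rose and 4 fell.

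Elongation factors and other mRNAs with a TOP motif depended on the scaling. Of 13 such genes 2 rose and 2 fell in Ncoa6-sufficient and 3 rose and 2 fell in Ncoa6-KO BMDMs with TMM scaling, 6 and 2, and 7 and 2, with DESeq2's size factors, and 0 and 12 in both genotypes with total counts. Eef1a1, the most abundant of them, had 110171 and 97530 normalized counts in medium alone and 131342 and 116702 with LPS + MSU in Ncoa6-sufficient BMDMs, a log2 fold change of 0.26 (SE 0.13, adjusted p = 0.111, edgeR). Eef2 had 0.22 and Tpt1 0.02, also without a call. With DESeq2's size factors Eef1a1 and Eef2, but not Tpt1, were called higher in Ncoa6-sufficient BMDMs. Pabpc1, which binds poly(A) tails, rose by 0.74 and 0.73 and the initiation factor subunit Eif3e by 0.42 in each genotype, with TMM scaling, and with total counts Pabpc1 had 0.07 and 0.09 and Eif3e -0.26 and -0.21. The initiation factor Eif4b fell by 0.95 and 0.88 and the histone chaperone Nap1l1 by 0.58 and 0.53 on the log2 scale. The splicing regulator Hnrnpa1 was called in Ncoa6-KO BMDMs, where it rose by 0.36 with TMM scaling and fell by 0.28 with total counts. Of 30 initiation factor genes 9 rose and 3 fell, and 10 rose and 2 fell, but with total counts 2 rose and 24 fell, and 2 rose and 23 fell. In the knockout comparisons 0 genes of the lists for assembly, RNA polymerase I, elongation and initiation were called, 1 mitochondrial ribosomal protein gene was lower in each culture condition, and among the regulators 1 was higher and 1 lower with LPS + MSU.

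Markers of other cells moved with the culture condition too. The summed erythroid and mast cell markers, of which 3 of 8 were tested, fell from 12.6 to 26 CPM in medium alone to 0.760 to 2.10 with LPS + MSU, and Hbb-bs, Hba-a1, Cpa3 and Mcpt4 had 3 or fewer counts in every library. The dendritic cell markers, 5 of 6 tested and Siglech at 3 or fewer counts, rose from 0.768 to 1.04 to 4.60 to 7.23 CPM. Neutrophil markers, 7 of 8 tested and Ly6g at 3 or fewer counts, had 18.8 to 25.9 CPM over all libraries. With LPS + MSU 4 of them were called higher in each genotype with TMM scaling, and 2 with total counts. B cell markers had 1.27 to 2.30 CPM in medium alone and 0.277 to 0.853 with LPS + MSU. Osteoclast markers had 33.8 to 42.9 CPM in medium alone and 55.9 to 63.4 with LPS + MSU. Stromal cell markers had 6.12 to 25.2 CPM over all libraries. The part of these markers in the results was not tested.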

How the data were processed

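Poly(A) RNA of BMDMs was sequenced by the authors as stranded libraries with paired reads of 100 bases, aligned with STAR 2.7.3a and counted with RSEM 1.3.3 against GRCm38. The deposited values are expected counts per gene, not normalized, for 50615 genes and 8 libraries. They were rounded, and genes with a sum under 10 were left out, which kept 17625. edgeR 4.0.16 (R 4.3.3) was fitted with TMM factors and 4 group means on 4 residual degrees of freedom, and calls were made where the p-value, adjusted over all tested genes after Benjamini-Hochberg, lay under 0.05. No smaller exact permutation p-value than 0.333 exists for 2 against 2 libraries. SE is the standard error of a log2 fold change. Per the file headers each column is a library, and library depth sets the counting error. Gene positions, principal transcripts and shared stretches came from GENCODE vM21 (GRCm38), another release than the counting used. The code was tested on simulated data.

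The members and the lists were chosen with earlier results of these data known. Named were the 5 members with the highest and lowest level, the 5 largest rises and falls among called members per culture-condition comparison, the called members or else the 3 smallest p-values per knockout comparison and the interaction, the paralog pairs, genes next to the limit of 50 counts, the P stalk with Rpsa and Rps6, and fixed genes of the lists. Some genes that the rule names are not reported here. Rpl10a, Rpl7a, Rps9, Rpl29, Rps3, Rpl32, Rps21, Eif3e, Eif4b, Nap1l1 and Hnrnpa1 were named after their values were seen. The alternatives were DESeq2 1.42.0, its size factors in edgeR, total counts, no filter or filterByExpr, limma-voom (limma 3.58.1), the replicate number as a block, separate fits of the compared libraries, fits that leave out a library, adding pseudogene counts, limits of 10 or 1000 counts for members, and other denominators of the share. Starts came from RefSeq (GRCm38.p6).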

Additional observations from a re-analysis of the deposited data

How the results depend on the processing

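Of 184 alternative values for counts of called members, medians and shares, 157 stayed within the limits set for them, and of 230 for single genes, 214 kept their direction and side of the threshold. For a share the limit was the SD of the 2 libraries of the group. Leaving out 1 of these libraries cannot pass that limit, so those values were bound to stay within it. In Ncoa6-sufficient BMDMs, LPS + MSU gave 9 called members, 27 with DESeq2, 21 with DESeq2's size factors in edgeR, and 78, all lower, with total counts, which also gave a median of -0.58. In Ncoa6-KO BMDMs it gave 21 called members, 43 with DESeq2, 38 with its size factors, 36 with filterByExpr, 38 with the replicate block and 72, all lower, with total counts. The median there was 0.26 with DESeq2 or its size factors and -0.43 with total counts. In Ncoa6-sufficient BMDMs the median moved from 0.09 to 0.20 with DESeq2 or its size factors. With total counts the log2 fold changes in Ncoa6-sufficient BMDMs were -0.07 for Rpl24, -0.18 for Rps24, -0.23 for Rps20 and -0.32 for Rpl15, and in Ncoa6-KO BMDMs -0.07 for Rps20, -0.10 for Rps24 and -0.18 for Rpl19, while Rpl24 (0.11) was no longer called. The scaling itself makes these changes with total counts, since it shifts all genes of a library alike. The test moved the calls too, 27 and 43 with DESeq2 against 21 and 38 with its size factors in edgeR. For no filter, filterByExpr, the replicate block and the fits without a library, the share of all tested genes called is not given here. Leaving out each library gave 4 to 13 called members in Ncoa6-sufficient BMDMs (4 without medium library 2 or LPS + MSU library 1) and 8 to 18 in Ncoa6-KO BMDMs (8 without medium library 1 or LPS + MSU library 1, 10 without LPS + MSU library 2), where fewer libraries were fitted and the lone library was assumed to vary like the other groups. Between genotypes with LPS + MSU, 1 member, Rpl22l1, was called with DESeq2, with no filter, with the replicate block and without Ncoa6-KO library 1, so leaving out libraries gave 0 to 1, and total counts moved the median to 0.10. With medium alone 1 member, again Rpl22l1, was called with no filter and with the replicate block. Without mitochondrially encoded genes in the denominator the share was 2.69% and 2.61% in Ncoa6-sufficient and Ncoa6-KO BMDMs in medium alone. With LPS + MSU it was 1.84% and 1.97%. Library numbers 1 and 2 recur across the groups in the labels, but nothing ties a number to one mouse. Over 11219 genes the differences between libraries 1 and 2 had correlations of 0.04 to 0.35 between groups (0.28 and 0.35 within a genotype). The 0.04 was between Ncoa6-KO BMDMs in medium alone and Ncoa6-sufficient BMDMs with LPS + MSU, which differ in genotype, so it does not bear on shared mice. The correlations within a genotype were the highest of the 6. Since no label names the mice, the numbers were not taken as pairs, and a shared factor is not excluded. With the replicate block the log2 fold changes of Rpl22l1 were -0.51 (adjusted p = 0.00824, edgeR) in medium alone and -0.52 (adjusted p = 0.00713) with LPS + MSU, and 13 members were called with LPS + MSU in Ncoa6-sufficient BMDMs. Member standard errors were near 0.10, and near 0.15 for the interaction. The medians of 0.09, -0.09 and 0.02, and of 0.11 for the interaction, are about that size or smaller. Such sizes are below what single-gene tests could call with 2 libraries per group.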
